A study of Mus musculus with 9 samples.

Results

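The levels of 8 transcription factors that mark segments of the nephron were followed across the cells of 9 mouse kidneys: Hnf4a, Pax8, Pax2, Tfap2b, Emx1, Nfia, Zbtb20 and Tfcp2l1. The members were taken by name, and all 8 were listed in each of the 9 count matrices, which together list 32427 genes. Kidneys came from male C57BL/6 mice that were 6 weeks old at the start and were studied for 8 weeks. Control mice (n = 3) received saline by intraperitoneal injection, and AKI-CKD mice (n = 3) received cisplatin at 8 mg/kg by the same route once weekly for 4 weeks. AKI-CKD + EGT mice (n = 3) received the same cisplatin and ergothioneine (EGT), a sulfur-containing antioxidant amino acid, at 0.5 mg/mL in drinking water. EGT was begun before the first cisplatin dose and kept up to the end of the study. Cisplatin, a platinum drug that damages tubular cells, is used in this model to bring about acute kidney injury (AKI) that passes into chronic kidney disease (CKD). The injury comparison, of AKI-CKD with Control, asks what the injury changes, and the EGT comparison, of AKI-CKD + EGT with AKI-CKD mice, asks what EGT changes.

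The segments of the nephron and the collecting duct keep different sets of transcription factors in the adult kidney. Pax2 and Pax8 are paired-box factors needed for the kidney epithelium to form, and both are known to stay on in parts of the mature tubule. Hnf4a is a nuclear receptor needed for the proximal tubule, Tfap2b is an AP-2 factor of the distal tubule, and Tfcp2l1 is a grainyhead-like factor needed for the intercalated and principal cells of the collecting duct. Nfia is a nuclear factor I protein and Zbtb20 a zinc-finger repressor, and both are active in many tissues. Emx1 is a homeobox factor best known from the developing forebrain.

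After filtering, 196925 of 216680 cell barcodes remained, with a median of 2714 transcripts (unique molecular identifiers, UMIs) per cell. The 9 libraries held 70106161 to 101525691 UMIs over all barcodes. No cell had the same counts as a cell of another library. The median mitochondrial share of UMIs ran from 1.23% in Control mouse 3 to 7.64% in AKI-CKD + EGT mouse 3. Cells were grouped without the use of the members into 43 clusters of at least 50 cells, and 40 of these received a cell type name from marker genes, so each name stands for cells that resemble the type. Proximal tubule (PT) cells made up 163382 of the kept cells, and the other tubule types were the loop of Henle (LOH, thick limb, 4694 cells), distal convoluted tubule (DCT, 5831), connecting tubule (CNT, 2257), principal cells (CD-PC, 2751) and intercalated cells (CD-IC, 1361) of the collecting duct, and the thin limb (491, with as few as 19 in a mouse). The same markers gave the names, so their levels describe the types and do not test them. At least 2 times higher in their own type than in the rest were 12 of 16 PT markers, with a median fold of 2.06, 9 of 10 thin limb, 9 of 9 LOH, 8 of 8 DCT, 6 of 7 CNT, 8 of 8 CD-PC and 11 of 11 CD-IC markers.

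PT transcripts were found in every cell type. The sum of 10 abundant PT transcripts reached from 27.5% of their PT level in CD-PC to 74.6% in macrophages, and 42.8% in LOH and 40.0% in DCT. For each member and mouse, the level that such carried-over RNA alone would give was computed as the PT level of the member times that percentage. RNA carried over from types other than PT is not in this predicted level. Levels are given in CPM, counts scaled to a common depth by all UMIs of the cells of a type in a mouse. They are descriptions without a test, because the types were drawn from the same cells.

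**Figure D1:**
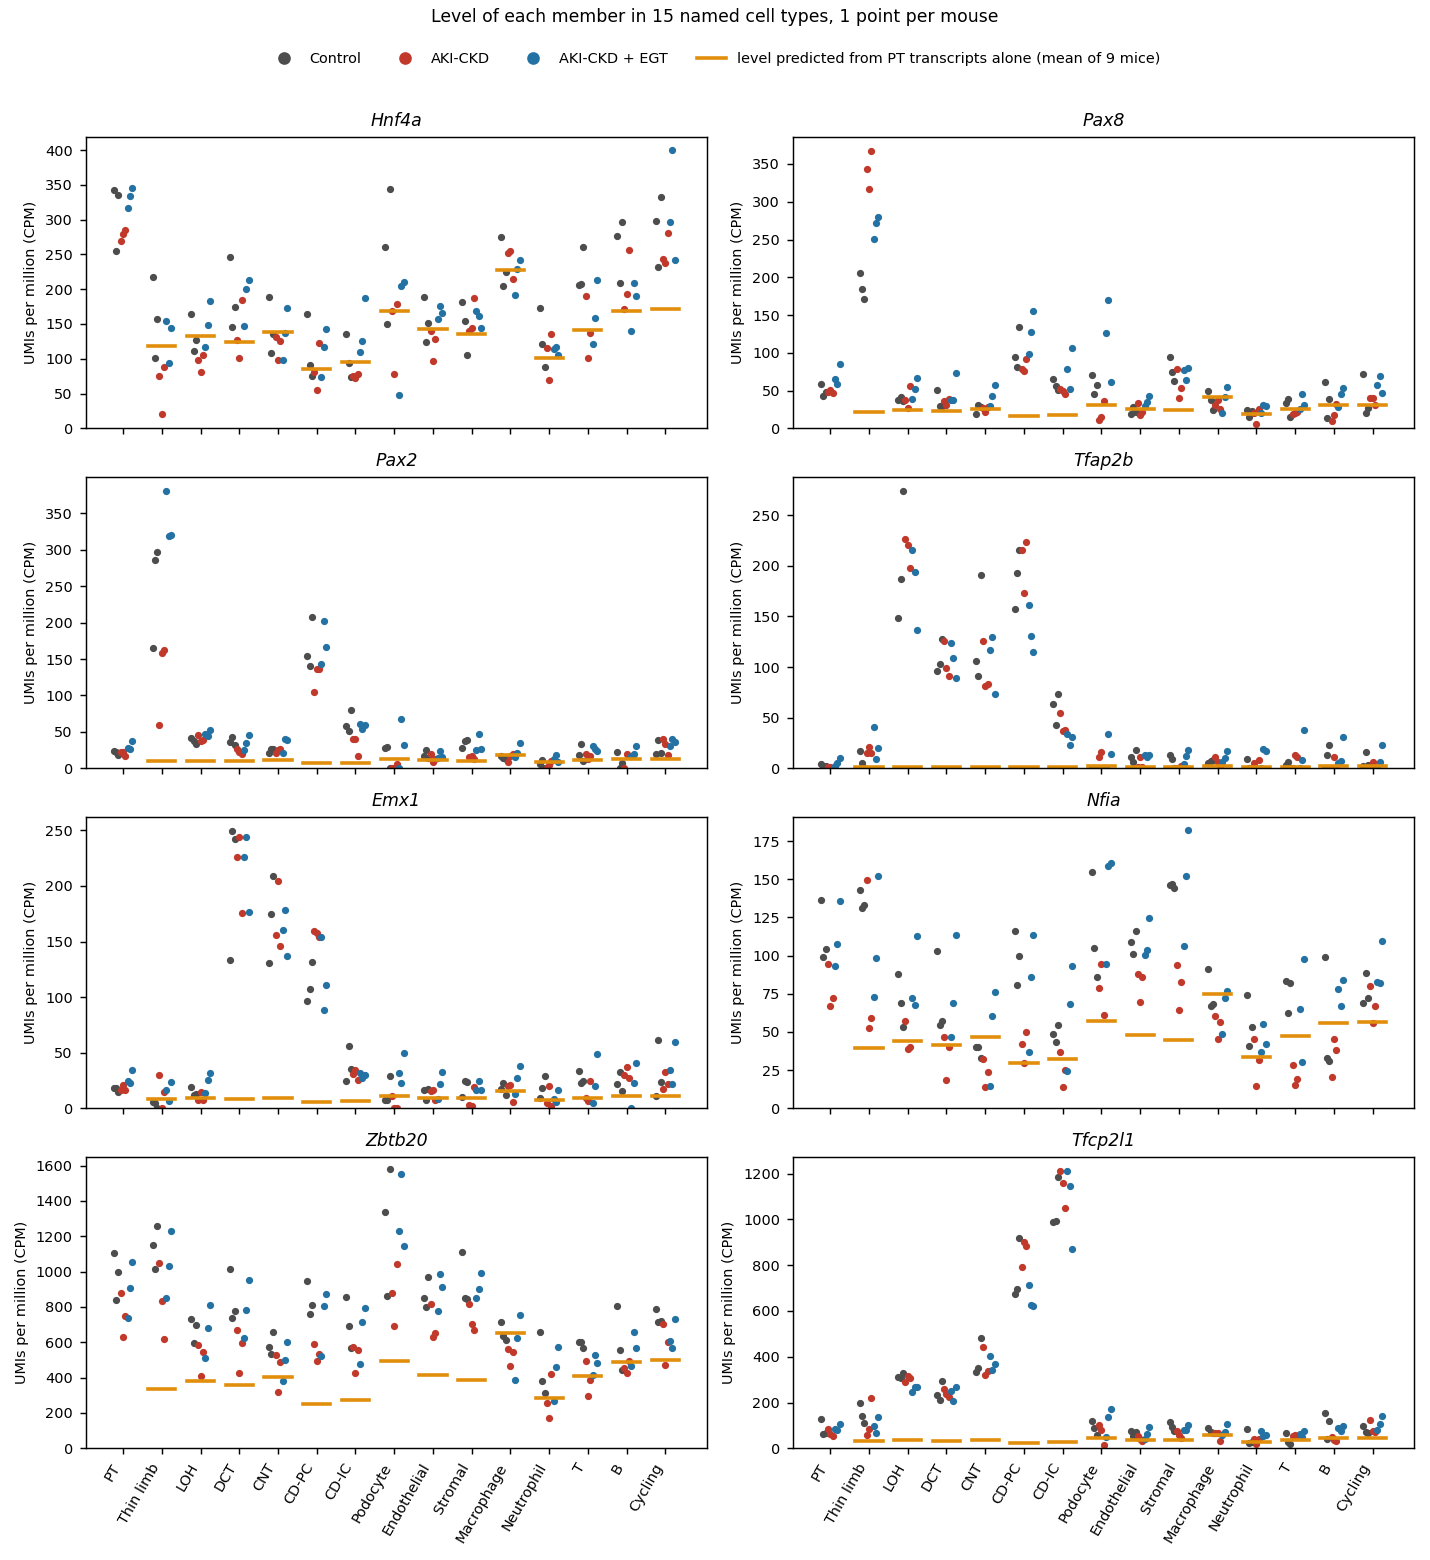
Level of each of the 8 members (CPM, linear axes that start at 0) in 15 named cell types, with 1 point per mouse coloured by group and a line for the level predicted from PT transcripts alone (mean of 9 mice). Tfap2b, Emx1 and Tfcp2l1 stood far above that line in distal types, and Hnf4a lay close to it in nearly every type outside PT.

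Hnf4a, the proximal tubule receptor, was highest in PT at 307 ± 35 CPM (SD, n = 9). The lowest, median and highest mice were at 255, 317 and 346 CPM. Cycling cells followed at 285 ± 55.3, with PT higher in 8 of 9 mice and overlapping ranges. Hnf4a was detected in every other type as well, at 177 ± 51.2 CPM in T cells, which should lack it, at 171 ± 45.6 in DCT and at 126 ± 33 in LOH. Outside PT and cycling cells, the observed level was between 0.953 and 1.38 times that predicted from PT transcripts. Cycling cells were at 1.65 times the predicted level. With each cell thinned to 1000 UMIs, Hnf4a was detected in 24.7% ± 2.42 (SD, n = 9; 54.9% before thinning) of PT cells and in 11.9% ± 4.57 (SD, n = 9; 30.6% before thinning) of T cells, at median depths of 2805 and 2326 UMIs per cell. The share in T cells is the background for this gene. The genes whose pattern was most like that of Hnf4a over the 15 named cell types were Cryl1 (r = 0.99), Hsd3b9 (r = 0.99) and Erich4 (r = 0.99). These correlations, like those for the members that follow, are descriptions over cell types that share libraries, depth and carried-over PT RNA, chosen among 10054 genes.

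Pax8 and Pax2 had their highest means in the same type, the thin limb, though without Harmony correction Pax2 was highest in CD-PC. Pax8 reached 266 ± 69.6 CPM (SD, n = 9) in the thin limb, with a lowest, median and highest mouse of 171, 272 and 368 CPM. The next type, CD-PC, was at 104 ± 28.1 CPM, lower in 9 of 9 mice without overlap. PT stood at 56.3 ± 12.9 CPM. The thin limb level was 12 times that predicted from PT transcripts, and the CD-PC level 6.55 times. T cells, at 27.9 ± 10.4 CPM, were at 1.09 times the predicted level. A cluster counted as stromal on 5 of 11 markers held Pax8 at 133 ± 41.1 CPM, and the other stromal cluster at 33.0 ± 20.7. The first was led by C3, Tagln and Stc2, and its leading genes C3, Cp and Ankrd1 were also among those of the thin limb cluster formed without Harmony correction, so its stromal name is not secure. After thinning, Pax8 was detected in 21.6% ± 5.64 (SD, n = 9; 53.3% before thinning) of thin limb cells and 2.88% ± 1.31 (SD, n = 9; 7.63% before thinning) of T cells, with median depths of 2917 and 2326 UMIs. Its closest patterns were those of Myo5b (r = 0.96), Chd9 (r = 0.96) and Gprc5c (r = 0.94).

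Pax2 was at 239 ± 105 CPM (SD, n = 9) in the thin limb and at 155 ± 33 CPM in CD-PC, higher in the thin limb in 8 of 9 mice with overlapping ranges. CD-IC followed at 51.2 ± 17.5 CPM, below CD-PC in 9 of 9 mice without overlap, then LOH at 42.4 ± 6.07. DCT, cycling cells and CNT came next, and PT lay below them in mean at 24.2 ± 5.76. Pax2 was thus highest in the thin limb and CD-PC, in an order that depended on the clustering. The thin limb and CD-PC levels were 25.3 and 22.5 times the level predicted from PT transcripts, and T cells were at 1.94 times it. Within CD-PC, the cluster led by Aqp2, which encodes the vasopressin-regulated water channel, held Pax2 at 304 ± 77.4 CPM, and the cluster that also carried CNT markers held it at 72.1 ± 12.8. After thinning, Pax2 was detected in 13.6% ± 1.67 (SD, n = 9; 29.8% before thinning) of CD-PC cells and 2.15% ± 1.60 (SD, n = 9; 5.48% before thinning) of T cells, whose median depths were 2988 and 2326 UMIs. Its closest patterns were those of Rgl3 (r = 0.95), Wwc1 (r = 0.94) and Elovl7 (r = 0.94).

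Tfap2b, Emx1 and Tfcp2l1 were each highest in a distal segment. Tfap2b was highest in LOH at 199.9 ± 41.6 CPM (SD, n = 9), with a lowest, median and highest mouse of 136, 198 and 274 CPM. CD-PC stood at 176 ± 38.8 CPM, CNT at 111 ± 36.3 and DCT at 107 ± 15. LOH and CD-PC did not differ beyond their spread, with LOH higher in 6 of 9 mice and CD-PC highest without Harmony correction, and neither did CNT and DCT, with CNT higher in 4 of 9. Within CD-PC, the Aqp2-led cluster held Tfap2b at 108 ± 35.7 CPM and the cluster with CNT markers at 215 ± 36.5. DCT lay above CD-IC, at 44.2 ± 16.5 CPM, in 9 of 9 mice without overlap. PT held only 3.27 ± 2.96 CPM, so the LOH level was 132 times that predicted from PT transcripts, from 27.1 to 799 times over the mice. T cells were at 5.80 and endothelial cells at 6.13 times the predicted level, so the prediction fell short there too. After thinning, Tfap2b was detected in 17.3% ± 3.73 (SD, n = 9; 32.1% before thinning) of LOH cells, against 0.583% ± 0.753 (SD, n = 9; 2.42% before thinning) of T cells, at median depths of 1968 and 2326 UMIs. Inside LOH, 3 clusters held Tfap2b at 271, 172 and 253 CPM, and a cluster rich in PT transcripts, at 77.4% of the PT level, held it at 89.7. The closest patterns were those of Kcnj1 (r = 0.98), Kng2 (r = 0.97) and Sostdc1 (r = 0.97), of which Kcnj1, the apical potassium channel ROMK, is itself one of the LOH markers used for naming.

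Emx1 was highest in DCT at 213 ± 41.2 CPM (SD, n = 9), with a lowest, median and highest mouse of 133, 226 and 249.7 CPM. CNT followed at 166 ± 27.8 CPM, lower in 9 of 9 mice with overlapping ranges, and CD-PC at 129 ± 28.6. LOH, directly upstream of DCT, was at 16.2 ± 8.10 CPM and PT at 20.6 ± 6.20. T cells were at 2.33 times the level predicted from PT transcripts. Emx1 therefore appeared at DCT and was low again in CD-IC, at 32.9 ± 9.44 CPM. The CD-PC level came mainly from the cluster with CNT markers, at 182 ± 21 CPM, and the Aqp2-led cluster held 31.4 ± 12.6. In DCT, 3 clusters held Emx1 at 281, 255 and 425 CPM, and a DCT cluster with PT transcripts at 58.5% of the PT level held it at 54.9. After thinning, Emx1 was detected in 19.5% ± 3.69 (SD, n = 9; 41.7% before thinning) of DCT cells and 1.27% ± 0.81 (SD, n = 9; 5.89% before thinning) of T cells, at median depths of 2589 and 2326 UMIs. The closest patterns were those of Lhx1 (r = 0.98), Pgam2 (r = 0.93) and Calb1 (r = 0.91), where Lhx1 is another homeobox factor of the forming nephron and Calb1, a calcium-binding protein, is a CNT marker used for naming.

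Tfcp2l1 was highest in CD-IC at 1091 ± 121 CPM (SD, n = 9), with a lowest, median and highest mouse of 871, 1145 and 1214 CPM. CD-PC stood at 759 ± 119 CPM, below CD-IC in 9 of 9 mice with overlapping ranges. CNT was at 376 ± 54.6, below CD-PC in 9 of 9 mice without overlap, and LOH at 294 ± 27.9 and DCT at 242 ± 27.9 came next. The mean Tfcp2l1 level was thus higher in the cells named CD-PC and CD-IC than in LOH, DCT and CNT. Type A intercalated cells, which secrete acid, held 1378 ± 156 CPM, and type B cells, which secrete bicarbonate, 955 ± 109.8. The Aqp2-led cluster and the CD-PC cluster with CNT markers were alike in mean, at 767 ± 149 and 763 ± 111 CPM. The high level was therefore also found in cells with CNT markers. The difference between CNT and CD-PC depends on how the second cluster, 61.3% of CD-PC, was named. After thinning, Tfcp2l1 was detected in 58.5% ± 4.70 (SD, n = 9; 84.5% before thinning) of CD-IC cells and 4.60% ± 2.94 (SD, n = 9; 12.8% before thinning) of T cells, at median depths of 3315 and 2326 UMIs. The closest patterns were those of Atp6v1f (r = 0.97), S100a1 (r = 0.95) and Tmem213 (r = 0.95), of which Atp6v1f encodes a subunit of the proton pump of intercalated cells.

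The promoters of these distal members are shown because Tfap2b is an AP-2 factor whose level, like those of the other two, was above the predicted one in DCT, CNT and CD-PC, and AP-2 factors bind GCCNNNGGC, which is its own reverse complement. RefSeq promoters of build GRCm38.p6, from 250 bases before to 50 bases after the gene start, were searched for these letters, so both strands are covered. They occurred in 16.6% of all 32851 promoters and in 4 of the 11 promoters of the 8 members. Capitals mark the match, and the distance is counted from the gene start. Tfap2b (chr1:19211804-19212103, plus strand) has no match, Emx1 (chr6:85187681-85187980, plus strand) has 1 match at 20, and Tfcp2l1 (chr1:118627695-118627994, plus strand) has 1 match at -231. A match is a description of the letters and says nothing of binding in these cells.
Tfap2b: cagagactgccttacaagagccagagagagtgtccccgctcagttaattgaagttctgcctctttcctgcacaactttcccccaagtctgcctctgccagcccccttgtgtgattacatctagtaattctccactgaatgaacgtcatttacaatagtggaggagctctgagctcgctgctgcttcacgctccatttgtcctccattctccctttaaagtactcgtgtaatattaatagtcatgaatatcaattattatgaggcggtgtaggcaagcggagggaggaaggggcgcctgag
Emx1: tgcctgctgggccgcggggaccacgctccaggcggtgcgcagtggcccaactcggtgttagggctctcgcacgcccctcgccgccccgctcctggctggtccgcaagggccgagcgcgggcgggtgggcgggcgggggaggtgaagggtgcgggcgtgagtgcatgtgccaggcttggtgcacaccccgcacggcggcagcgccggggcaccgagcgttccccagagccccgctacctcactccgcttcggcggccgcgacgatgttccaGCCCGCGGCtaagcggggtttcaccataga
Tfcp2l1: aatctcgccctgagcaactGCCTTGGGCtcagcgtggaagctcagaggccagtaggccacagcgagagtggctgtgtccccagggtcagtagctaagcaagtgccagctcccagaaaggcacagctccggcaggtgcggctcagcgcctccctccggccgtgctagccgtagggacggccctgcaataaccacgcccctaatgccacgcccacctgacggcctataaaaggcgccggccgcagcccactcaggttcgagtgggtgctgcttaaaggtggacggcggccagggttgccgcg

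Nfia and Zbtb20 were not restricted to a segment. Nfia was at 124 ± 38.9 CPM (SD, n = 9) in stromal cells, 110.5 ± 37.7 CPM in podocytes, 110.1 ± 39.9 in the thin limb, 101 ± 24 in PT and 99.8 ± 16.6 in endothelial cells. No neighbours in this order were apart in their ranges. CNT was at 37.2 ± 20.5 CPM, which was 0.801 times the level predicted from PT transcripts. Nfia was detected in 8.41% ± 1.61 (SD, n = 9; 24.1% before thinning) of PT cells after thinning and 3.85% ± 3.47 (SD, n = 9; 13.1% before thinning) of T cells, at median depths of 2805 and 2326 UMIs. Zbtb20 was at 1146 ± 309.9 CPM (SD, n = 9) in podocytes, 1004 ± 206 CPM in the thin limb, 878 ± 158 in PT and 860.1 ± 134 in stromal cells. It was also detected at 486 ± 103 CPM in T cells, 1.18 times the predicted level. After thinning, Zbtb20 was detected in 48.9% ± 5.60 (SD, n = 9; 76.8% before thinning) of PT cells and 30.5% ± 8.09 (SD, n = 9; 55.1% before thinning) of T cells, at the same median depths. The closest patterns to Nfia were those of P4ha2 (r = 0.91), Apbb2 (r = 0.87) and Ankrd29 (r = 0.86), and to Zbtb20 those of Tmem161a (r = 0.96), Tmem199 (r = 0.94) and Creld1 (r = 0.93).

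Within PT, both genes were most abundant in clusters rich in Malat1, a nuclear RNA. These 2 clusters held 10.6% of PT cells. Nfia stood there at 283 ± 72.4 CPM and in the other PT clusters at 69.1 ± 12.5. Zbtb20 stood at 1832 ± 442 and 711 ± 109.6 CPM, and Pax8 at 119.9 ± 35.5 and 45.2 ± 8.27. Hnf4a differed less, at 364 ± 36.8 and 298 ± 34.7 CPM. Pax2 was at 52.9 ± 13.3 and 19.2 ± 4.12 CPM, and Tfcp2l1 at 125 ± 39 and 72.9 ± 19.9. Emx1, at 21 ± 7.11 and 20.6 ± 6.11 CPM, and Tfap2b, at 3.19 ± 3.13 and 3.28 ± 2.92, were low in both.

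The groups were compared on counts summed per mouse, in all kept cells and in 6 tubule types, with edgeR's quasi-likelihood test (2-sided, Benjamini-Hochberg over all genes tested). In such sums, fewer cells of a subtype and less RNA per cell cannot be told apart. From here on, levels of members and other factors in the tested populations are TMM-scaled CPM. Those of nuclear RNAs, summed markers or PT transcripts, single clusters and the thin limb are plain CPM. All 8 members passed the filter on low counts in all 7 populations. None of the 8 was called at an adjusted p under 0.05 in any of the 14 tests by edgeR, and DESeq2 called 1 (Tfap2b in PT, in the EGT comparison), beside 1.47% of all genes in that test, where genes to which DESeq2 gave no adjusted p are in the total. Both comparisons contain the same 3 AKI-CKD mice, so their values are not independent of each other.

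In the injury comparison, edgeR called 0.0199% of all genes in all kept cells, 0.0444% in PT, 0.0105% in LOH, 0% in DCT, 0.0306% in CNT, 0.0201% in CD-PC and 0.0256% in CD-IC, beside 0 of 8 members in each. An unadjusted p under 0.05 was reached by 1 member in all kept cells beside 8.02% of all genes, 2 in PT beside 10.9%, 2 in LOH beside 9.35%, 3 in DCT beside 8.94%, 0 in CNT beside 6.92%, 3 in CD-PC beside 15.6% and 1 in CD-IC beside 11.6%. The 3 AKI-CKD mice did not overlap the 3 Control mice for 1 member in all kept cells, where 15.8% of all genes did not overlap, for 2 in PT (20.2%), 2 in LOH (15.2%), 3 in DCT (15.2%), 1 in CNT (13.1%), 3 in CD-PC (23.9%) and 2 in CD-IC (18.5%). A count of 1 of 8 members, as in CD-IC, is not far from the share of all genes. The members were not compared with genes of like level, and the populations come from the same mice. The median log2 fold change of the 8 members was between -0.35 in CD-IC and -0.10 in CNT, and that of all genes tested was between -0.014 and 0.0013.

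In the EGT comparison, edgeR called 0.00496% of all genes in all kept cells, 0% in PT, 0.0732% in LOH, 0% in DCT, 0% in CNT, 0.01% in CD-PC and 2.42% in CD-IC, again beside 0 of 8 members in each. An unadjusted p under 0.05 was reached by 2 members in all kept cells beside 12.7% of all genes, 4 in PT beside 15.2%, 3 in LOH beside 13.7%, 2 in DCT beside 13.4%, 1 in CNT beside 7.2%, 5 in CD-PC beside 15.1% and 5 in CD-IC beside 17.7%. Groups did not overlap for 2 members in all kept cells (18.3% of all genes), 3 in PT (21.2%), 3 in LOH (16.4%), 0 in DCT (18.3%), 0 in CNT (11.6%), 4 in CD-PC (18.5%) and 3 in CD-IC (19.6%). The median log2 fold change of the members was between 0.090 in CNT and 0.48 in CD-IC, and that of all genes between -0.010 and 0.015.

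**Figure D2:**
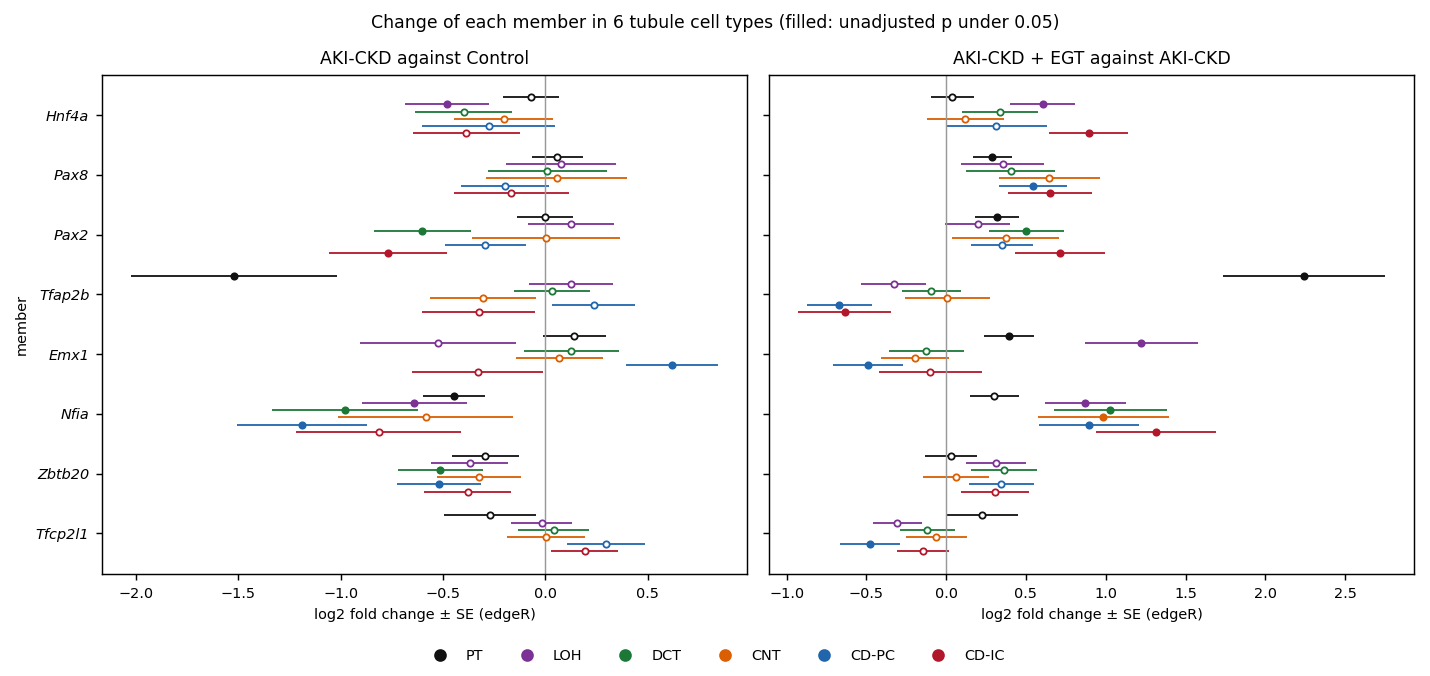
Log2 fold change (edgeR, with bars of 1 standard error) of each member in 6 tubule types, in the injury comparison on the left and in the EGT comparison on the right, with filled points at an unadjusted p under 0.05. None passed an adjusted p of 0.05 by edgeR. On the left, Hnf4a, Nfia and Zbtb20 each lay below 0 in 6 of 6 tubule types. On the right, where the same AKI-CKD mice were used, each of them lay above 0 in 6 of 6. PT transcripts were found in all of these types, and their part in these values was not tested.

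Hnf4a in PT was close between the groups. Its TMM-scaled level in the 3 mice of each group was 323, 272 and 345 CPM in Control, 279.8, 296 and 320.3 in AKI-CKD and 313, 318 and 288 in AKI-CKD + EGT. The ranges of all 3 groups overlapped. The log2 fold change by edgeR was -0.069 (SE 0.13, unadjusted p = 0.617, adjusted p = 0.86) in the injury comparison and 0.038 (SE 0.13, unadjusted p = 0.782, adjusted p = 0.921) in the EGT comparison. The sign of each was not stable, being 0.012 without Control mouse 3 in the first and -0.013 without AKI-CKD mouse 1 in the second. In LOH, where its level was close to that predicted from PT transcripts, the log2 fold change by edgeR was -0.48 (SE 0.21, unadjusted p = 0.0319, adjusted p = 0.505) in the injury comparison and 0.60 (SE 0.21, unadjusted p = 0.0088, adjusted p = 0.206) in the EGT comparison. The 10 abundant PT transcripts in LOH were at 65642, 70009 and 56808 CPM in Control, 39666, 27927 and 61868 in AKI-CKD and 42946, 52845 and 54309 in AKI-CKD + EGT. In CNT, where the level was as close to the predicted one, the edgeR log2 fold changes were -0.20 (SE 0.24, unadjusted p = 0.407, adjusted p = 0.893) and 0.12 (SE 0.24, unadjusted p = 0.623, adjusted p = 0.96) in the 2 comparisons. In CD-IC, Hnf4a was at 136, 94 and 68.7 CPM in Control, 76.8, 75.1 and 81.1 in AKI-CKD and 109, 122 and 191 in AKI-CKD + EGT, with every AKI-CKD + EGT mouse above every AKI-CKD mouse. The edgeR log2 fold change there was 0.89 (SE 0.25, unadjusted p = 0.00192, adjusted p = 0.0613). The abundant PT transcripts in CD-IC were at 47095, 50265 and 25513 CPM in Control, 23323, 15815 and 41975 in AKI-CKD and 32062, 52550.2 and 45897 in AKI-CKD + EGT, and their part in the Hnf4a values of LOH and CD-IC was not tested.

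Nfia gave the lowest unadjusted p among the members in the injury comparison, in CD-PC. Its level there was 114, 80.8 and 90.9 CPM in Control, 44.3, 30.9 and 51.9 in AKI-CKD and 38.6, 80.4 and 111 in AKI-CKD + EGT. Every AKI-CKD mouse lay below every Control mouse, and AKI-CKD + EGT mouse 1 lay among the AKI-CKD mice. The edgeR log2 fold change was -1.19 (SE 0.32, unadjusted p = 0.0017, adjusted p = 0.13) in the injury comparison and 0.89 (SE 0.31, unadjusted p = 0.0117, adjusted p = 0.232) in the EGT comparison. Without AKI-CKD + EGT mouse 1, Nfia was called in CD-PC in both comparisons, at log2 fold changes of -1.19 and 1.20, beside 1.31 and 6.2% of all genes. Malat1, the nuclear RNA, followed the same mice in CD-PC, at 17014, 16515 and 15943 CPM in Control, 7535, 7373 and 7334 in AKI-CKD and 8418, 16040.2 and 22063 in AKI-CKD + EGT, and its part in the Nfia values was not tested. Over all 19 alternatives, the log2 fold change of Nfia lay between -1.33 and -0.997 in the injury comparison. None of these alternatives tested whether Nfia followed the nuclear RNAs. Over the 9 mice, Nfia was at 131 ± 46.6 CPM in the Aqp2-led cluster and 39.1 ± 27.9 in the CD-PC cluster with CNT markers. The share of CD-PC cells in the Aqp2-led cluster was lower in all AKI-CKD than in all Control mice. The part of this makeup in the summed Nfia values was not tested. Within the Aqp2-led cluster Nfia was at 139, 126 and 214 CPM in Control, 121, 82.7 and 124 in AKI-CKD and 62.7, 125 and 188 in AKI-CKD + EGT, where AKI-CKD + EGT mouse 1 lay below all AKI-CKD mice. In the CD-PC cluster with CNT markers it was at 98.9, 45.1 and 30.4 CPM in Control, 19.1, 11.3 and 13.5 in AKI-CKD and 26.8, 44.4 and 62.6 in AKI-CKD + EGT, with the AKI-CKD mice below all others. These AKI-CKD values rested on few UMIs, as all of CD-PC held 154 to 414 cells in a mouse. The clusters were picked after their values were seen, and no test is given.

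**Figure D3:**
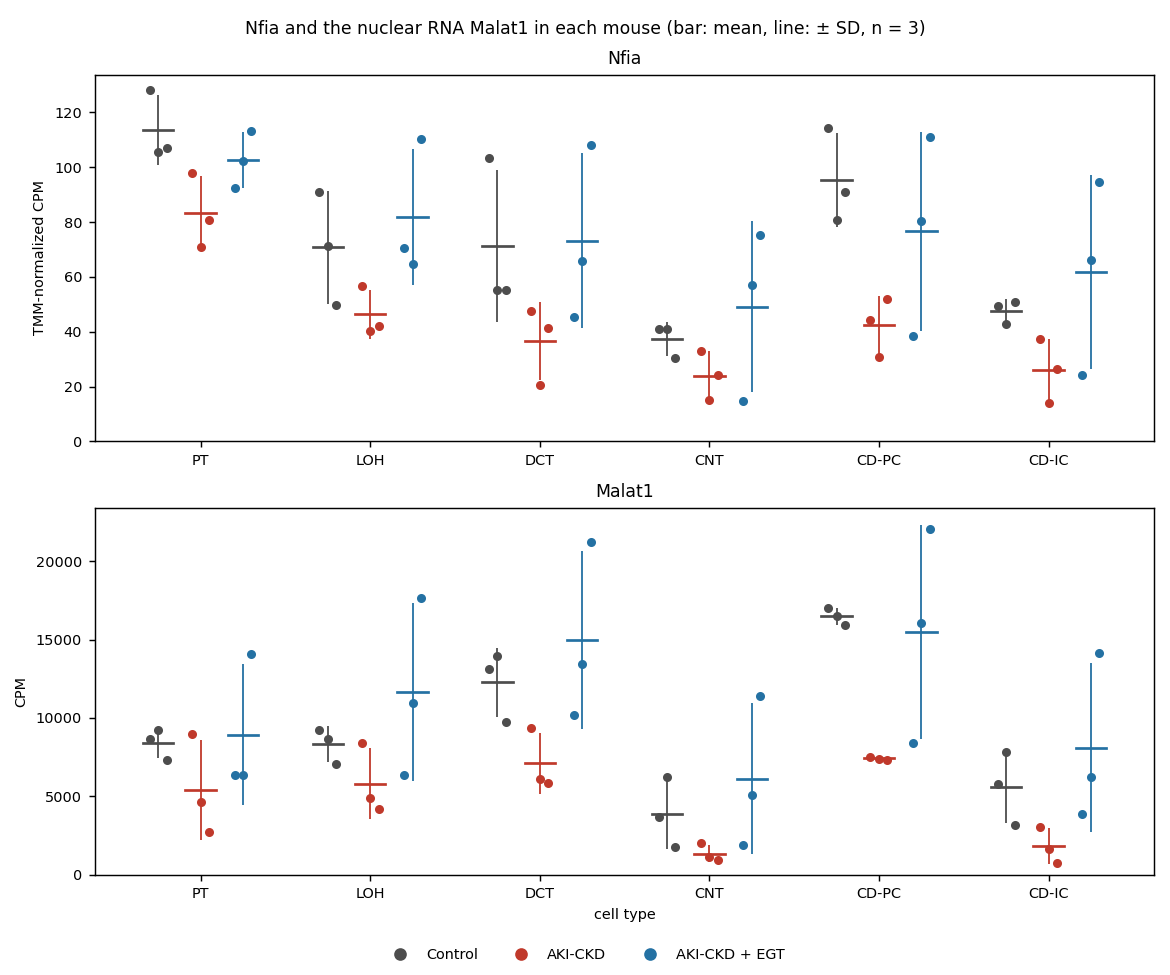
Level of Nfia (TMM-scaled CPM, upper panel) and of Malat1 (CPM, lower panel) in 6 tubule types, with 1 point per mouse, the mean of each group as a bar and its SD as a line (n = 3). In CD-PC the 3 AKI-CKD mice lie below the 3 Control mice for both genes.

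In each of the other tubule types, the AKI-CKD mice also had the lowest mean of Nfia. In PT it was at 128, 105 and 107 CPM in Control, 98.1, 70.9 and 80.8 in AKI-CKD and 92.5, 102 and 113 in AKI-CKD + EGT, with no overlap between Control and AKI-CKD and a log2 fold change of -0.45 (SE 0.15, unadjusted p = 0.0132, adjusted p = 0.375) by edgeR. In DCT it was at 103, 55.4 and 55.1 CPM in Control, 47.6, 20.4 and 41.5 in AKI-CKD and 45.6, 65.8 and 108 in AKI-CKD + EGT, with edgeR log2 fold changes of -0.98 (SE 0.36, unadjusted p = 0.0152, adjusted p = 0.5) and 1.03 (SE 0.35, unadjusted p = 0.0109, adjusted p = 0.258) in the 2 comparisons. The DCT level was highest in 1 of the 4 DCT clusters, at 114 CPM against 20.7 to 44.1 in the other clusters. In that cluster the abundant PT transcripts were at 58.5% of their PT level and 29.2% of cells were among those of highest doublet score, and their part in the Nfia values was not tested. In LOH the log2 fold changes were -0.64 (SE 0.26, unadjusted p = 0.0229, adjusted p = 0.484) and 0.87 (SE 0.25, unadjusted p = 0.00295, adjusted p = 0.134) by edgeR. None of these values passed the adjusted threshold by edgeR. In CD-IC it was at 49.2, 42.9 and 50.8 CPM in Control, 37.2, 14.1 and 26.3 in AKI-CKD and 24.2, 66.3 and 94.7 in AKI-CKD + EGT, and the edgeR log2 fold change in the EGT comparison was 1.32 (SE 0.37, unadjusted p = 0.00235, adjusted p = 0.068). In CNT it was at 41, 40.9 and 30.3 CPM in Control, 33, 15 and 24.1 in AKI-CKD and 14.6, 57.2 and 75.4 in AKI-CKD + EGT, with AKI-CKD + EGT mouse 1 below all AKI-CKD mice, and this log2 fold change was 0.98 (SE 0.41, unadjusted p = 0.0246, adjusted p = 0.629) by edgeR. Malat1 in CD-IC was at 5809.9, 7813 and 3165 CPM in Control, 3045, 1662 and 757 in AKI-CKD and 3887, 6258 and 14164 in AKI-CKD + EGT, and in DCT at 13109.9, 13953 and 9742 CPM in Control, 9363, 6094 and 5870.0 in AKI-CKD and 10220.5, 13421 and 21244 in AKI-CKD + EGT. In PT it was at 8653, 9260.1 and 7315 CPM in Control, 8949, 4605 and 2711 in AKI-CKD and 6352, 6334 and 14110.1 in AKI-CKD + EGT, in LOH at 9253, 8662 and 7048 CPM in Control, 8389, 4859.9 and 4154 in AKI-CKD and 6357, 10936 and 17642 in AKI-CKD + EGT and in CNT at 3652, 6247 and 1754 CPM in Control, 1987, 1119.8 and 915 in AKI-CKD and 1886, 5111 and 11398 in AKI-CKD + EGT. In PT, LOH and CNT, AKI-CKD mouse 1 lay above Control mouse 3 and AKI-CKD + EGT mouse 1 for Malat1, so the groups overlapped there.

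Within the Malat1-rich PT clusters, Nfia was at 388, 261 and 291 CPM in Control, 239, 193 and 178 in AKI-CKD and 291, 348 and 354 in AKI-CKD + EGT. Zbtb20 was at 2509, 1628 and 2068 CPM in Control, 1494, 1304 and 1235 in AKI-CKD and 1892, 2262 and 2099 in AKI-CKD + EGT in the same cells. For both genes in these cells, 10.6% of PT, the AKI-CKD mice lay below all Control and all AKI-CKD + EGT mice. The same held for Tfap2b, at only 0.828 to 10.8 CPM over the 9 mice. Hnf4a, Pax8, Pax2 and Tfcp2l1 were also lower in all AKI-CKD than in all AKI-CKD + EGT mice, but overlapped with Control. Emx1 overlapped in both comparisons. The share of all genes without overlap in these clusters was not computed. In the other PT clusters, Nfia was at 81, 68.5 and 74.9 CPM in Control, 65.8, 48.4 and 56.4 in AKI-CKD and 63.5, 73.9 and 89.6 in AKI-CKD + EGT, so that AKI-CKD + EGT mouse 1 lay below AKI-CKD mouse 1. Zbtb20 in those clusters was at 799.9, 691 and 829.9 CPM in Control, 760.1, 531 and 674 in AKI-CKD and 561, 717 and 834 in AKI-CKD + EGT, with overlap in both comparisons. The Malat1-rich clusters were singled out after their values were seen, so no test is given. Their share of PT cells was 12.4, 12.3 and 8.65% in Control, 13, 8.52 and 7.86% in AKI-CKD and 9.58, 9.47 and 13.8% in AKI-CKD + EGT, with overlapping groups.

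Zbtb20 had negative log2 fold changes in 6 of 6 tubule types in the injury comparison, from -0.52 to -0.29. It stood at 1.62 times the level predicted from PT in LOH, 2.04 in DCT, 1.27 in CNT, 2.80 in CD-PC and 2.29 in CD-IC. Its level in CD-PC was 931, 761 and 742 CPM in Control, 625, 519 and 552 in AKI-CKD and 549.8, 753 and 853 in AKI-CKD + EGT. The edgeR log2 fold change was -0.52 (SE 0.20, unadjusted p = 0.0216, adjusted p = 0.248) in CD-PC and -0.51 (SE 0.21, unadjusted p = 0.0257, adjusted p = 0.519) in DCT. In the EGT comparison the 6 log2 fold changes of Zbtb20 ran from 0.030 to 0.36, and none had an unadjusted edgeR p under 0.05. Malat1 in CD-PC, given above, was also lower in all AKI-CKD than in all Control mice. The Aqp2-led cluster held Zbtb20 at 857 ± 149 CPM and the other CD-PC cluster at 620 ± 178. The share of the Aqp2-led cluster was lower in all AKI-CKD than in all Control mice. The part of Malat1, of this makeup and of carried-over PT RNA in the Zbtb20 values was not tested.

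Pax2 and Pax8 were higher in the mean of mice given EGT than of the AKI-CKD mice in 6 of 6 tubule types each. Pax2 in PT was at 22.6, 24.5 and 19.3 CPM in Control, 23.4, 23.9 and 19.1 in AKI-CKD and 27, 24.8 and 30.8 in AKI-CKD + EGT, and the edgeR log2 fold change was 0.32 (SE 0.14, unadjusted p = 0.0435, adjusted p = 0.314). Pax8 in PT was at 54.7, 46.3 and 50.003 CPM in Control, 50.4, 54.1 and 52.9 in AKI-CKD and 65.1, 56.1 and 71 in AKI-CKD + EGT, with 0.29 (SE 0.12, unadjusted p = 0.039, adjusted p = 0.305) by edgeR. Pax2 gave edgeR log2 fold changes of 0.50 (SE 0.23, unadjusted p = 0.0493, adjusted p = 0.373) in DCT and 0.71 (SE 0.28, unadjusted p = 0.0197, adjusted p = 0.191) in CD-IC. Pax8 gave 0.54 (SE 0.21, unadjusted p = 0.02, adjusted p = 0.263) in CD-PC and 0.65 (SE 0.26, unadjusted p = 0.0227, adjusted p = 0.205) in CD-IC by the same test. In the injury comparison, Pax2 had edgeR log2 fold changes of -0.60 (SE 0.24, unadjusted p = 0.0231, adjusted p = 0.515) in DCT and -0.77 (SE 0.29, unadjusted p = 0.0155, adjusted p = 0.317) in CD-IC, and Pax8 reached no unadjusted p under 0.05.

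In the sums of all kept cells, where the numbers of each cell type also enter, 3 values of members had an unadjusted p under 0.05. Nfia had an edgeR log2 fold change of -0.48 (SE 0.17, unadjusted p = 0.0158, adjusted p = 0.556) in the injury comparison, and Pax2 and Tfap2b had 0.38 (SE 0.13, unadjusted p = 0.0128, adjusted p = 0.321) and 0.49 (SE 0.21, unadjusted p = 0.0415, adjusted p = 0.382) in the EGT comparison. PT cells made up 83.0% of the kept cells in these sums, and the part of the cell type makeup in these values was not tested.

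The thin limb, where both paired-box genes had their highest mean with Harmony correction, held as few as 19 cells in a mouse and was left out of the count test. Pax8 there was at 206, 184 and 171 CPM in Control, 344, 317 and 368 in AKI-CKD and 251, 272 and 280.2 in AKI-CKD + EGT. The 3 AKI-CKD mice lay above the others, the AKI-CKD + EGT mice between, and no groups overlapped. The AKI-CKD values rested on 23 to 30 UMIs a mouse. Of 1647 genes with a mean of at least 100 CPM in the thin limb, 20% did not overlap between AKI-CKD and Control and 18.3% between AKI-CKD + EGT and AKI-CKD. The thinned share of thin limb cells with Pax8 was 20.6, 17.2 and 20.9% in Control, 15.8, 25.9 and 25% in AKI-CKD and 31, 24.4 and 13.1% in AKI-CKD + EGT, and these shares did overlap. Pax2 there was at 166, 286 and 297 CPM in Control, 59.8, 159 and 162 in AKI-CKD and 381, 319 and 320.2 in AKI-CKD + EGT. The AKI-CKD mice lay below the others for Pax2, on only 4, 15 and 11 UMIs, and AKI-CKD mouse 3 and Control mouse 1 (29 UMIs) were close to each other.

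**Figure D4:**
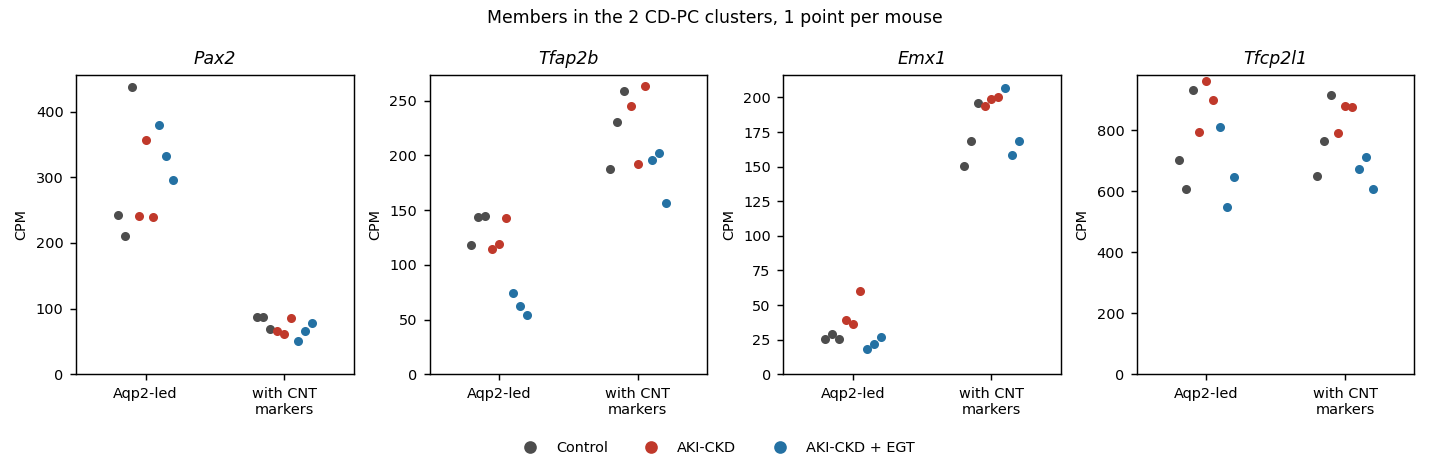
Level of Pax2, Tfap2b, Emx1 and Tfcp2l1 (CPM) in the Aqp2-led CD-PC cluster and in the CD-PC cluster with CNT markers, with 1 point per mouse in the 3 groups. Emx1 was near 31.4 CPM in the first and 182 in the second, and Pax2 near 304 and 72.1.

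In CD-PC, the distal members Emx1, Tfap2b and Tfcp2l1 each had a lower mean with EGT than in the AKI-CKD mice without it. Emx1 there was at 94.7, 107 and 120.2 CPM in Control, 169, 165 and 161 in AKI-CKD and 161, 82.8 and 109 in AKI-CKD + EGT. Every AKI-CKD mouse lay above every Control mouse, and AKI-CKD + EGT mouse 1 lay within the AKI-CKD range. The edgeR log2 fold change was 0.62 (SE 0.22, unadjusted p = 0.0139, adjusted p = 0.22) in the injury comparison and -0.49 (SE 0.22, unadjusted p = 0.0411, adjusted p = 0.32) in the EGT comparison. Tfap2b was at 155, 193 and 197 CPM in Control, 229, 182 and 233 in AKI-CKD and 169, 123 and 113 in AKI-CKD + EGT, with all AKI-CKD + EGT mice below all AKI-CKD mice and an edgeR log2 fold change of -0.67 (SE 0.20, unadjusted p = 0.0046, adjusted p = 0.209). Tfap2b in CD-IC, where it was lower in level, had an edgeR log2 fold change of -0.64 (SE 0.29, unadjusted p = 0.041, adjusted p = 0.26) in the EGT comparison. Tfcp2l1 in CD-PC was at 663, 696 and 841 CPM in Control, 839, 945 and 919 in AKI-CKD and 746, 588 and 611 in AKI-CKD + EGT, again with no overlap, and an edgeR log2 fold change of -0.48 (SE 0.19, unadjusted p = 0.0224, adjusted p = 0.264). The share of CD-PC cells in the Aqp2-led cluster, low in Emx1 and Tfap2b, was 44.3, 44.3 and 39.8% in Control, 29.5, 30.8 and 34.4% in AKI-CKD and 32.3, 49.6 and 40.1% in AKI-CKD + EGT, with no overlap between Control and AKI-CKD. The part of this makeup in the summed values was not tested. Within the Aqp2-led cluster, Tfap2b was at 118, 144 and 145 CPM in Control, 115, 119 and 143 in AKI-CKD and 74.6, 62.5 and 54.2 in AKI-CKD + EGT and Emx1 at 25.7, 28.7 and 25.2 CPM in Control, 39.2, 36.4 and 59.9 in AKI-CKD and 17.9, 22 and 27.1 in AKI-CKD + EGT. Tfap2b there was lower in all AKI-CKD + EGT mice than in the other mice, and Emx1 was higher in all AKI-CKD mice, in a cluster picked after its values were seen and without a test. The low Emx1 levels rested on few UMIs, as all of CD-PC held 154 to 414 cells in a mouse. The other CD-PC cluster held 61.3% of these cells, and the groups overlapped in it for both genes. Tfap2b there was at 188, 231 and 259 CPM in Control, 245, 192 and 264 in AKI-CKD and 195, 203 and 156 in AKI-CKD + EGT. Emx1 in that cluster was at 150.3, 168 and 196 CPM in Control, 194, 199 and 200.5 in AKI-CKD and 207, 158 and 168 in AKI-CKD + EGT, where Control mouse 3 lay above AKI-CKD mouse 1 and AKI-CKD + EGT mouse 1 lay above all AKI-CKD mice. Tfcp2l1 was at 703, 608 and 931 CPM in Control, 794, 962 and 899 in AKI-CKD and 812, 548 and 647 in AKI-CKD + EGT in the Aqp2-led cluster, where AKI-CKD + EGT mouse 1 lay above AKI-CKD mouse 1. In the other cluster Tfcp2l1 was at 651, 764 and 914 CPM in Control, 792, 880.5 and 876 in AKI-CKD and 674, 711 and 608 in AKI-CKD + EGT, with all AKI-CKD + EGT mice below all AKI-CKD mice.

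Tfap2b in PT was very low and had the largest log2 fold changes among the members. Its level was 4.24, 2.93 and 2.05 CPM in Control, 0.879, 1.66 and 0.702 in AKI-CKD and 1.92, 4.93 and 8.33 in AKI-CKD + EGT. The 3 AKI-CKD mice lay below all Control and all AKI-CKD + EGT mice. The edgeR log2 fold changes were -1.52 (SE 0.50, unadjusted p = 0.0118, adjusted p = 0.365) and 2.24 (SE 0.51, unadjusted p = 0.00112, adjusted p = 0.199), and the second was called without AKI-CKD + EGT mouse 1, at 2.63, beside 1.22% of all genes. The summed LOH and DCT markers in PT were at 615, 583 and 441 CPM in Control, 433, 485 and 391 in AKI-CKD and 604, 655 and 1106 in AKI-CKD + EGT, and the summed CD-IC markers at 17.8, 18.7 and 8.79 CPM in Control, 9.59, 10.01 and 6.08 in AKI-CKD and 12.8, 33.2 and 92.3 in AKI-CKD + EGT. All of these were highest in AKI-CKD + EGT mouse 3, where Tfap2b was also highest, and their part in the Tfap2b values was not tested. Emx1 in PT gave an edgeR log2 fold change of 0.39 (SE 0.16, unadjusted p = 0.0288, adjusted p = 0.279), and in LOH, where it was also low, 1.22 (SE 0.36, unadjusted p = 0.00284, adjusted p = 0.134). Without the LOH cluster rich in PT transcripts, an alternative added after the data were seen, the log2 fold change of Emx1 in LOH in the EGT comparison was 1.67, not called by edgeR.

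**Figure D5:**
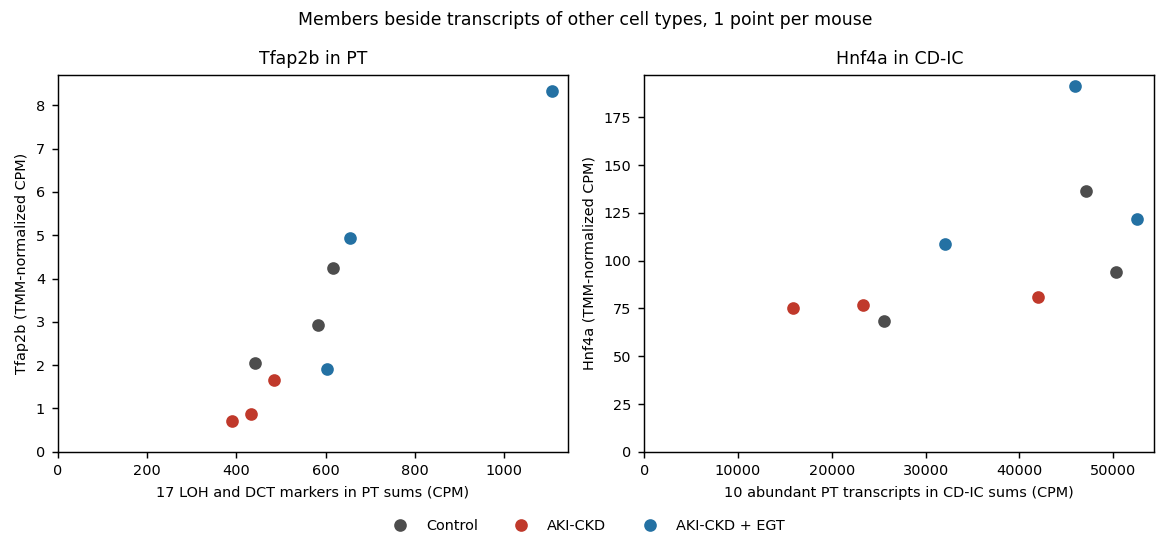
Left, Tfap2b in PT (TMM-scaled CPM) against the sum of 17 LOH and DCT markers in PT (CPM), and right, Hnf4a in CD-IC (TMM-scaled CPM) against the sum of 10 abundant PT transcripts in CD-IC (CPM), with 1 point per mouse in 3 groups. AKI-CKD + EGT mouse 3 is highest on the vertical axis in both panels, and in the left panel the AKI-CKD mice lie lowest for Tfap2b.

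The change itself was compared between LOH or DCT and PT in the same mice by limma. No member passed an adjusted p of 0.05 in any of the 4 tests. In the EGT comparison, 0.272% of all genes passed for LOH minus PT and 0% for DCT minus PT, and in the injury comparison 0% and 0.00897%. Tfap2b came nearest, with a difference in log2 change (LOH minus PT) of -2.41 (SE 0.56, unadjusted p = 0.000864, adjusted p = 0.0949) in the EGT comparison by limma. The same difference for DCT minus PT was -2.16 (SE 0.55, unadjusted p = 0.00182, adjusted p = 0.243) by limma. Tfap2b was called in both only without AKI-CKD + EGT mouse 1, where 3.21% of all genes were called for LOH minus PT and 2.57% for DCT minus PT. These differences contain the log2 fold change of 2.24 in PT, where Tfap2b was very low. In LOH, Tfap2b was at 226, 229 and 205 CPM in AKI-CKD and 211, 186 and 133 in AKI-CKD + EGT. In DCT it was at 128, 107 and 93.8 CPM in AKI-CKD and 121, 104 and 85.3 in AKI-CKD + EGT. The 2 groups overlapped in both types.

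Thinned shares of cells with a UMI of a member were compared by exact 2-sided permutation tests of 3 mice against 3, in which the smallest possible p is 0.1. Over 240 tests of the 8 members, 15 cell types and 2 comparisons, the smallest adjusted p was 0.511, so this design could pass no threshold of 0.05.

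Of 45 other nephron transcription factors listed for comparison, between 32 and 45 were tested in each population, and edgeR made calls in CD-IC alone. Nr3c2, the mineralocorticoid receptor, was at 112, 90.5 and 92.6 CPM in Control, 44.2, 25 and 26.3 in AKI-CKD and 99, 125 and 144 in AKI-CKD + EGT in CD-IC. It fell in the injury comparison, with an edgeR log2 fold change of -1.57 (SE 0.26, unadjusted p = 8.41e-06, adjusted p = 0.0329) and rose in the EGT comparison by 1.91 (SE 0.25, unadjusted p = 3.09e-07, adjusted p = 0.000954). Esrrg, an estrogen-related receptor active in energy metabolism, rose by 2.38 (SE 0.37, unadjusted p = 3.58e-06, adjusted p = 0.004) and Mecom, a zinc-finger factor, by 1.15 (SE 0.25, unadjusted p = 0.000161, adjusted p = 0.0215) in the EGT comparison by edgeR. In the same CD-IC sums, the nuclear RNA Neat1 was at 667, 533 and 169 CPM in Control, 125, 143 and 77.6 in AKI-CKD and 317, 689 and 1520.03 in AKI-CKD + EGT, and 4 nuclear RNAs together had means of 6068, 1938 and 9003 CPM. Both were lower in all AKI-CKD mice than in the other mice, and their part in the values of Nr3c2, Esrrg and Mecom was not tested. The first Nr3c2 call was lost without any 1 of Control mice 1 and 2, AKI-CKD mice 2 and 3 and AKI-CKD + EGT mouse 2, with log2 fold changes from -1.63 to -1.40, and also with a mitochondrial limit of 10% or without the cells of highest doublet score, where the log2 fold changes lay within the same range. The call of Mecom was lost without any 1 AKI-CKD mouse or AKI-CKD + EGT mouse 2 or 3, with log2 fold changes from 0.87 to 1.27. In CD-IC, 2.42% of all genes were called in that comparison. In LOH, Esrrg had an edgeR log2 fold change of 1.25 (SE 0.24, unadjusted p = 6.46e-05, adjusted p = 0.0521) in the EGT comparison. Neither the members nor these factors had a call in PT, LOH, DCT, CNT or CD-PC by edgeR. An unadjusted p under 0.05 in the EGT comparison was reached by 14 of 45 of the other factors in PT beside 15.2% of all genes, 5 of 36 in LOH beside 13.7%, 6 of 38 in DCT beside 13.4%, 5 of 33 in CNT beside 7.2%, 12 of 37 in CD-PC beside 15.1% and 7 of 32 in CD-IC beside 17.7%. In LOH, DCT and CD-IC these shares were near that of all genes. In all kept cells it was 11 of 45 beside 12.7%. In the injury comparison it was 6 of 45 in all kept cells beside 8.02% of all genes, 12 of 45 in PT beside 10.9% and 6 of 36 in LOH beside 9.35%. In the other types it was 4 of 38 in DCT beside 8.94%, 4 of 33 in CNT beside 6.92%, 11 of 37 in CD-PC beside 15.6% and 6 of 32 in CD-IC beside 11.6%.

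The lowest unadjusted p-values among these factors fell on few genes. In all kept cells they were those of Grhl2, a grainyhead-like factor of distal epithelium, Mecom and Nr3c2, with edgeR log2 fold changes of 1.21, 1.44 and 1.24 in the EGT comparison. In PT they were those of the distal and collecting duct factors Gata3 (2.34), Tfap2a (2.90) and Gata2 (1.96), each with group means under 3 CPM, in the same population where Tfap2b was low. The LOH and DCT markers and the CD-IC markers in PT, given above, were higher in all AKI-CKD + EGT than in all AKI-CKD mice. Their part in the values of these 3 factors was not tested. In DCT, Grhl2, Esrrg and Nr3c2 had log2 fold changes of 0.89, 1.08 and 1.00 in that comparison. In CD-PC, Esrrg was at 609.8, 542 and 579 CPM in Control, 222, 279.7 and 332 in AKI-CKD and 384, 504 and 869.6 in AKI-CKD + EGT, with -1.06 (SE 0.26, unadjusted p = 0.000891, adjusted p = 0.123) and 1.08 (SE 0.26, unadjusted p = 0.000717, adjusted p = 0.161) by edgeR in the 2 comparisons. Mecom had -0.95 in CD-PC in the injury comparison. In CNT, Esrrg had 1.49 in the EGT comparison, and Irx3, an Iroquois homeobox factor, -1.44 and Mecom -0.66 in the injury comparison. In LOH, Nr3c2 had 0.999 and Tfcp2 1.19 in the EGT comparison. Sox4, a factor of immature epithelium, had -0.77 in CD-PC in the EGT comparison. None of these passed an adjusted p of 0.05 by edgeR. DESeq2 called the 3 in all kept cells, the 3 in PT, Esrrg in LOH, Esrrg and Nr3c2 in DCT and Esrrg in CD-PC in the EGT comparison, and Esrrg and Mecom in CD-PC in the injury comparison. DESeq2 called 0.673% of all genes in all kept cells, 0.325% in LOH, 0.459% in DCT and 0.148% in CD-PC in the EGT comparison, and 0.481% in CD-PC in the injury comparison.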

How the data were processed

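Per the labels and the study's methods, single-cell RNA libraries were made from 9 kidneys (3 a group, 3′ droplet capture), and the authors deposited raw UMI counts for each kidney as a matrix of genes by barcodes, counted with PISA on GRCm39. The deposited counts were used as they stood. No column was left unused. Cells with fewer than 1000 UMIs, fewer than 500 genes or over 15% mitochondrial UMIs were left out. Cells were clustered on 2000 variable genes, without the members or other listed transcription factors, with 30 principal components, Harmony correction per library and Leiden clustering (igraph 0.11.9, resolution 1.1, 20 neighbours, Python 3.11.15). Clusters were named from marker lists, by a naming rule set after the clusters were seen, and 5794 cells stayed unnamed, in 3 clusters of at least 50 cells and, for 28 of them, in smaller clusters. Scrublet (scanpy 1.11.5) called 4136 cells (2.10%), of which 4128 were among the 17196 cells of AKI-CKD + EGT mouse 1, so it did not work. No cell was removed as a doublet, and the 6% of highest score were left out as an alternative.

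UMIs were summed per mouse and type and tested with edgeR 4.0.16 (filterByExpr, TMM, quasi-likelihood F test, all 9 mice in 1 fit, R 4.3.3). The difference of a change between types was tested with limma 3.58.1 on log2 CPM with a prior count of 1. DESeq2 1.42.0 was an alternative. Fold changes carry the 3 mice a group as their precision. Harmony, the edgeR test and a simpler form of the limma test were tried on simulated data, and the other steps were not. Named genes were the 8 members, the other transcription factors called, with up to 3 of lowest p per population considered, and the 3 genes of highest Pearson correlation of log2(mean CPM + 1) with each member among those with at least 20 CPM in a type. The members, lists and tests were chosen with earlier results of these data known. Promoter sequences are from RefSeq (GRCm38.p6), used only for sequence, and no protein sequence was used here.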

Additional observations from a re-analysis of the deposited data

How the results depend on the processing

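With 3 mice a group, single libraries decided several calls. In the main setting edgeR called 0 members in each of 14 tests, and 312 of 332 recomputed counts were equal or close to the main count. They include the share tests, which could pass no threshold of 0.05. The count of members that kept their highest cell type without Harmony was taken as close, though Pax2 and Tfap2b changed. Fold changes were recomputed for 36 member results, those with an unadjusted edgeR p under 0.05 in the main setting and those of Hnf4a in PT. The rest of the member fold changes were left out of this count. Of 688 recomputed fold changes of the 36, 662 kept their direction and side of the threshold, 24 passed it and 2 reversed. The reversed ones were Hnf4a in PT, which ran from -0.16 to 0.012 in the injury comparison with each replicate left out in turn (0.012 without Control replicate 3) and from -0.013 to 0.091 in the EGT comparison (-0.013 without AKI-CKD replicate 1). Without the filter on low counts, edgeR called 1 member in PT (Tfap2b), 2 in LOH (Emx1 and Nfia), 1 in DCT (Nfia), 1 in CD-PC (Nfia) and 2 in CD-IC (Hnf4a and Nfia) in the EGT comparison, and 1 in DCT (Nfia) and 1 in CD-PC (Nfia) in the injury comparison, in fits that called 0.678 to 2.52% of all genes. The cause was not tested. DESeq2 called 1 member in PT in the EGT comparison (Tfap2b), beside 1.47% of all genes. Over the 14 tests DESeq2 called 0 to 446 of all genes and edgeR 0 to 189. Without the cells of highest doublet score, 2 members were called in CD-IC in the EGT comparison, beside 2.74% of all genes. With only the 6 mice compared in the fit, 1 was called in CD-IC in the EGT comparison (Hnf4a) and 1 in CD-PC in the injury comparison (Nfia), beside 2.48 and 1.19%.

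With each replicate left out in turn, the number of members called in the EGT comparison ran from 0 to 1 in PT, LOH and CNT, from 0 to 3 in CD-PC and from 0 to 2 in CD-IC, and in the injury comparison from 0 to 1 in CD-PC. The highest number in each case came without AKI-CKD + EGT replicate 1, where 1.22% of all genes were called in PT, 3.45% in LOH, 0.794% in CNT, 6.2% in CD-PC and 6.3% in CD-IC in the EGT comparison and 1.31% in CD-PC in the injury comparison. In CD-IC 1 member was also called without Control replicate 3, beside 2.73% of all genes. For the difference of change, DCT minus PT and LOH minus PT, the number ran from 0 to 1 in the EGT comparison. The replicate numbers were not treated as pairs of mice: same-numbered samples had correlations of their deviations from -0.458 to 0.373, above 0.1 in 4 of 36 pairs. With the replicate number as a block 0 members were called in all 14 tests, as without it, so that outcome does not bear on pairing. With each mouse left out in turn, or without the cells of highest doublet score, each member kept its highest cell type. Without the Harmony correction 6 of 8 did, and Pax2 and Tfap2b were then highest in CD-PC. The few cells of small types, such as 19 thin limb cells in a mouse, limit what could be tested.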
